A study of Mus musculus with 4 samples.

Results

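De novo nucleotide synthesis was followed through 10 enzyme genes, 7 of the purine branch (Prps1, Ppat, Gart, Paics, Adsl, Atic and Impdh2) and 3 of the pyrimidine branch (Cad, Dhodh and Umps). They were chosen by gene symbol from the 25759 symbols of the deposited count table, and all 10 were found there. The cells were type II cells of the alveolar epithelium, which make lung surfactant, taken from mice of the C57BL/6 strain at 14 weeks of age. The mTOR Tg group held 2 libraries from mice labelled as Sftpc-mTOR transgenic, in which a conditional, active form of the kinase mTOR is placed in the epithelium, and the WT group held 2 libraries from wild-type mice. The label names Sftpc, the surfactant protein C gene that marks type II cells, but the sources used here do not give the mutation, the inducing agent or the duration of activity. The labels do not say whether a library came from a single mouse or a pool, so p-values measure only the spread between these samples.

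Cells build purines stepwise on phosphoribosyl pyrophosphate (PRPP), from amino acids, carbon dioxide and folate-bound formyl groups, until inosine monophosphate is formed and then turned into adenine or guanine nucleotides. Pyrimidines are built the other way round, the ring being closed before it is joined to PRPP to give orotidine and then uridine monophosphate. mTOR complex 1 is known to drive both branches in other cell types, through phosphorylation of the CAD protein by the ribosomal S6 kinase and through the transcription factor ATF4, which raises mitochondrial folate enzymes. The first of these routes acts on the protein and cannot be read in RNA.

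The library totals were 21972124 and 20273396 counts in mTOR Tg replicates 1 and 2, and 18146693 and 19018785 counts in WT replicates 1 and 2. Each value is in CPM, the count over the library size in units of 1e6, with library sizes scaled by TMM (trimmed mean of M-values), unless another unit is named. All 10 enzymes were among the 13306 genes with enough counts to be tested, with 234 to 2888 counts a library. Sftpc took 67315 and 76033 CPM of the raw totals in mTOR Tg and 76123 and 63474 CPM in WT. Mtor itself was at 38.9 and 61.8 CPM in mTOR Tg and 56.8 and 56.7 CPM in WT (log2 fold change -0.17, SE 0.27), replicate 1 lying below WT and replicate 2 above it. The counts under this symbol therefore do not show the transgene the labels name, and whether its reads were counted there was not stated. Of the 4 libraries, mTOR Tg replicate 1 was the one that stood apart. Across genes its log2 CPM correlated with theirs at Pearson's r between 0.951 and 0.954, against 0.983 to 0.988 among the other 3, and genes are not independent replicates. In that library the median gene differed from the WT mean by 0.44 in log2 CPM in the quartile with the shortest transcripts and by -0.55 in the quartile with the longest. In mTOR Tg replicate 2 these medians were -0.0030 and 0.0024. The marker sums that follow are in CPM of the raw totals, and the order of libraries in them was not checked after TMM scaling. The club cell markers summed to 158420 and 55122 CPM in mTOR Tg replicates 1 and 2, against 82719 and 88906 CPM in WT. The type II cell markers summed to 121098 and 160082 CPM in mTOR Tg, against 151595 and 129402 CPM in WT. The sum of endothelial markers was lower in both mTOR Tg libraries, at 98.5 and 102 CPM, against 158 and 159 CPM in WT. Kdr was its largest part, at 48.2 and 36.1 CPM in mTOR Tg and 79.6 and 87.8 CPM in WT. Egfl7 and Vwf overlapped between genotypes, and the other endothelial markers were lower in both mTOR Tg libraries. The sum of the 7 type I cell markers was higher in both mTOR Tg libraries, at 1963 and 1703 CPM, against 1597 and 1535 CPM in WT. That sum was mostly Ager, at 1237 and 1130 CPM in mTOR Tg and 1012 and 935 CPM in WT. Apart from Ager only Rtkn2 was higher in both mTOR Tg libraries than in both WT libraries. The 8 leukocyte markers, mostly Cd68, summed to 3.78 and 4.54 CPM in mTOR Tg and 4.74 and 3.21 CPM in WT, with 2 of them (Cd3e and C1qb) at 0 in every library. The part of these differences in the results was not tested. Enzyme results that rest on replicate 1 are given with and without it.

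No enzyme gene of the pathway passed the test between genotypes. edgeR's two-sided quasi-likelihood test called 0 of the 10 enzymes higher and 0 lower at an adjusted p under 0.05, beside 0% of all genes tested. Their adjusted p ran from 0.860 to 0.944. At an unadjusted p under 0.05 there were 0 enzymes too, where 2.46% of all genes tested lay under that value. DESeq2 and limma-voom also called 0 of the 10, and over all genes DESeq2 called 12 (0.0902%) and limma-voom 0. The log2 fold changes of mTOR Tg over WT were positive for 7 enzymes and negative for 3, from -0.34 for Ppat to 0.35 for Impdh2. Their median was 0.07, compared with a median of 0.01 over all genes tested. The 95% intervals of the 10 fits reached from 0.553-fold at the lowest (Ppat) to 2.01-fold at the highest (Impdh2). These bounds belong to different genes, and the interval of each gene was narrower than that span. Every interval included no change, and with 2 libraries a group differences within a gene's own interval were not excluded. In bulk RNA, a smaller share of the cells that express a gene and less RNA in each cell cannot be told apart.

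**Figure D1:**
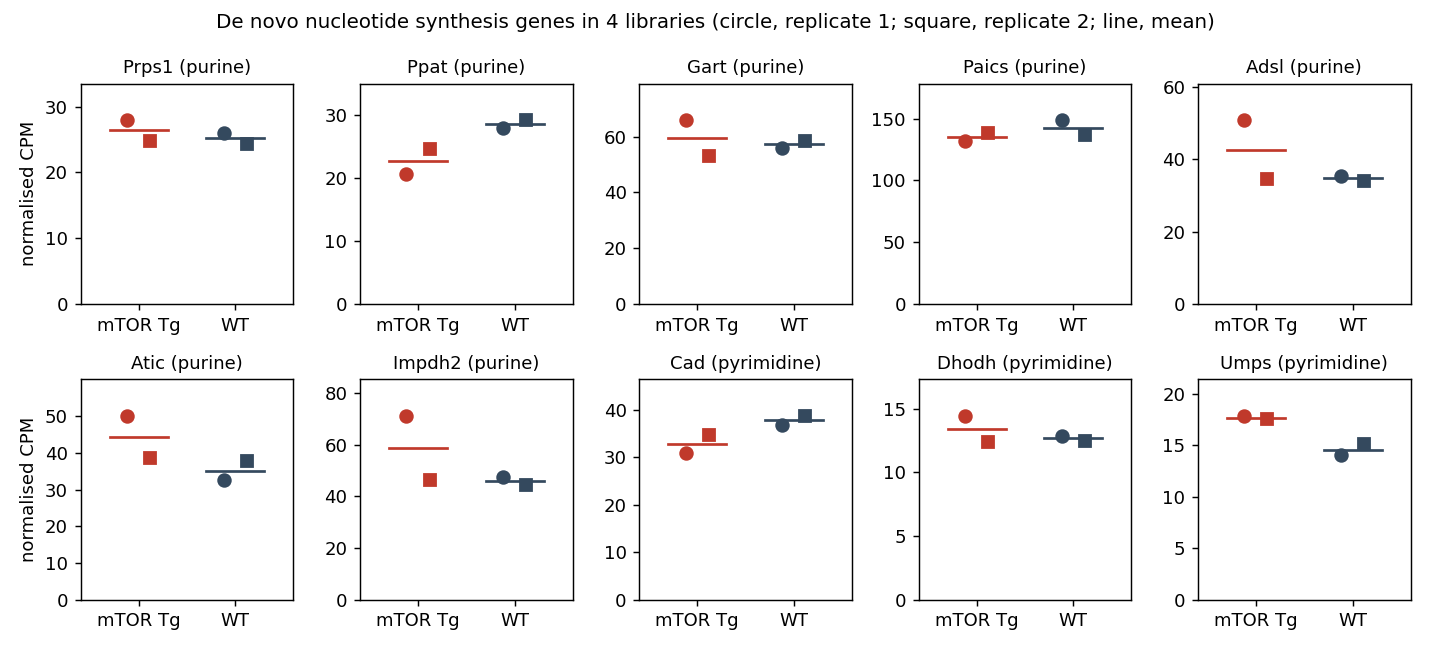
Normalised CPM (vertical axis, starting at 0) of the 10 enzyme genes in the 2 mTOR Tg and 2 WT libraries, with a line at each group mean. Umps and Atic lie higher in both mTOR Tg libraries than in both WT libraries, Ppat and Cad lie lower in both, and the 6 other genes overlap.

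In 2 of the 10 enzymes (Atic and Umps) each mTOR Tg library was higher than each WT library, as in 17.6% of all genes tested. Both lay below in 2 (Ppat and Cad), where 17.0% of all genes did. The remaining 6 overlapped between genotypes. Together 4 of 10 did not overlap, next to 34.6% over all genes, a share near that background. No exact two-sided permutation test on 2 libraries a group can give a p below 0.333, so groups that do not overlap cannot pass one.

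The purine branch starts with Prps1, the X-linked gene of PRPP synthetase (chromosome X, 140456613 to 140476140). It was at 27.9 and 24.8 CPM in mTOR Tg replicates 1 and 2 and at 26.0 and 24.4 CPM in WT, with mTOR Tg replicate 2 between the WT values. Its log2 fold change was 0.07 (SE 0.20), and -0.020 without mTOR Tg replicate 1. The paralog Prps2 was at 80.7 and 176 CPM in mTOR Tg and at 186 and 166 CPM in WT, so that mTOR Tg replicate 1 alone was low. Per kilobase of transcript the Prps1 to Prps2 ratio was 0.651 in that library, 0.266 in mTOR Tg replicate 2, and 0.264 and 0.276 in WT. Another member of the family, Prps1l3, was at 16.9 and 21.1 CPM in mTOR Tg and 26.5 and 21.3 CPM in WT. Reads of close relatives can be shared between them, so the split among these symbols is uncertain.

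Ppat (chromosome 5, 76913249 to 76951578) encodes the amidotransferase of the committed purine step, which puts the first nitrogen on PRPP. It was at 20.7 and 24.6 CPM in mTOR Tg and 28.0 and 29.2 CPM in WT. Both mTOR Tg libraries were lower than both WT libraries, but the gap between the nearest libraries of the groups was smaller than the gap within mTOR Tg. The means were 22.6 ± 2.80 CPM in mTOR Tg and 28.6 ± 0.821 CPM in WT (SD, n = 2 each), which is -0.34 as log2 fold change (SE 0.21; edgeR, adjusted p = 0.860). With mTOR Tg replicate 1 left out it was -0.22, and with replicate 2 left out -0.47. Once the trends on transcript length and GC content were taken out of each library it was -0.16 (SE 0.14), and -0.14 with replicate 2 left out as well.

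Gart (chromosome 16, 91621186 to 91646952), a multifunctional enzyme that carries out several of the following steps, was at 65.8 and 52.9 CPM in mTOR Tg and 56.0 and 58.4 CPM in WT. The mTOR Tg values lay on either side of WT. The log2 fold change of 0.05 (SE 0.21) turned to -0.11 without mTOR Tg replicate 1 and to -0.0019 after the length and GC correction. Son, a splicing factor gene that starts 554 bases from Gart on the other strand, was at 124 and 262 CPM in mTOR Tg and at 263 and 308 CPM in WT. The head-to-head pair therefore differed in mTOR Tg replicate 1, where Gart was highest among the 4 libraries and Son lowest. The longest annotated Son transcript has 8731 bases and that of Gart 3518. The part of length in this split was not tested.

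Paics (chromosome 5, 76951307 to 76967509), which joins a carboxylase and a ligase of the middle steps, was at 132 and 138 CPM in mTOR Tg and at 149 and 137 CPM in WT. Its WT libraries were farther apart than the group means. The log2 fold change was -0.08 (SE 0.19), with a 95% interval of 0.688-fold to 1.31-fold, and it ranged from -0.14 to -0.017 with 1 library left out. Paics and Ppat are transcribed away from each other, with start sites 271 bases apart, and the genes share 272 bases. Since the strand setting of the counting was not given in the sources used here, reads from that overlap cannot be assigned. Per kilobase Paics exceeded Ppat by 10.3 and 9.01 times in mTOR Tg and by 8.51 and 7.52 times in WT.

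Adsl (chromosome 15, 80948490 to 80970946), the lyase that acts both before and after the purine ring is closed, was at 50.8 and 34.5 CPM in mTOR Tg and 35.5 and 34.0 CPM in WT. Only mTOR Tg replicate 1 was high, and replicate 2 lay between the WT values. The log2 fold change of 0.30 (SE 0.25) became -0.0093 without mTOR Tg replicate 1.

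Atic (chromosome 1, 71557150 to 71579631), the enzyme that adds the last formyl group and closes the ring to inosine monophosphate, was at 49.99 and 38.7 CPM in mTOR Tg and 32.5 and 37.8 CPM in WT. Both mTOR Tg values were above both WT values, though replicate 2 cleared WT replicate 2 by less than the gap within WT. The means were 44.3 ± 7.996 CPM in mTOR Tg and 35.1 ± 3.71 CPM in WT (SD, n = 2 each), which is 0.34 as log2 fold change (SE 0.23; edgeR, adjusted p = 0.860). It was 0.14 when mTOR Tg replicate 1 was left out and 0.51 when replicate 2 was.

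Impdh2 (chromosome 9, 108560286 to 108565584), which encodes the dehydrogenase that commits inosine monophosphate to guanine nucleotides, was at 71.1 and 46.2 CPM in mTOR Tg and 47.6 and 44.2 CPM in WT. Replicate 1 of mTOR Tg stood far above the rest, and replicate 2 lay within WT. Its log2 fold change was 0.35 (SE 0.26) with all libraries, 0.0091 without mTOR Tg replicate 1, and 0.13 (SE 0.14) after the length and GC correction. The paralog Impdh1 was at 19.1 and 15.7 CPM in mTOR Tg and 16.1 and 17.2 CPM in WT. Per kilobase Impdh2 exceeded Impdh1 by 5.199 and 4.12 times in mTOR Tg and by 4.13 and 3.59 times in WT. The last 48 bases of Impdh2 also belong to Ndufaf3 on the other strand, at 28.9 and 16.6 CPM in mTOR Tg and 19.2 and 15.3 CPM in WT.

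Of the pyrimidine branch, Cad (chromosome 5, 31054780 to 31078479) encodes the large multifunctional protein of the opening steps, the S6 kinase substrate. It was at 30.9 and 34.7 CPM in mTOR Tg and 36.8 and 38.7 CPM in WT. Both mTOR Tg values were below both WT values, at 32.8 ± 2.66 CPM in mTOR Tg and 37.8 ± 1.29 CPM in WT (SD, n = 2 each), which is -0.20 as log2 fold change (SE 0.19; edgeR, adjusted p = 0.860). Cad has the longest transcript of the 10, at 7137 bases. The change was -0.12 without mTOR Tg replicate 1, and -0.10 (SE 0.13) after the length and GC correction.

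Dhodh (chromosome 8, 109591343 to 109608673), the mitochondrial dehydrogenase that makes orotate and passes electrons to ubiquinone, was at 14.4 and 12.4 CPM in mTOR Tg and 12.8 and 12.5 CPM in WT. Replicate 2 of mTOR Tg lay just below both WT libraries and replicate 1 above them. The log2 fold change was 0.08 (SE 0.22), -0.036 without mTOR Tg replicate 1 and -0.16 (SE 0.17) after the length and GC correction.

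Umps (chromosome 16, 33954782 to 33967038), the enzyme that joins orotate to PRPP and decarboxylates it to uridine monophosphate, was at 17.9 and 17.6 CPM in mTOR Tg and 14.1 and 15.1 CPM in WT. The 2 mTOR Tg libraries were closer to each other than the WT libraries were, and both were higher. The means were 17.7 ± 0.203 CPM in mTOR Tg and 14.6 ± 0.747 CPM in WT (SD, n = 2 each), a 1.21-fold value (log2 0.28, SE 0.20, 95% interval 0.853-fold to 1.73-fold, edgeR adjusted p = 0.860). The change was 0.27 without mTOR Tg replicate 1, 0.29 without mTOR Tg replicate 2, and 0.33 (SE 0.16) after the length and GC correction. Umps was 1 of 5 enzymes whose sign held in all 17 alternatives, with Ppat, Paics, Atic and Cad. No share over all genes is given beside this count, so nothing is read from it. The alternative with an adjusted p threshold of 0.10 reuses the main fit and could not change a sign. The others share libraries and are not independent.

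Compared per kilobase of the longest annotated transcript, the 10 enzymes spanned a wide range of levels. Paics was highest in all 4 libraries, at 54.5 ± 1.71 CPM per kilobase in mTOR Tg and 57.5 ± 3.41 in WT (SD, n = 2 each), followed by Impdh2 at 31.6 ± 9.47 in mTOR Tg and 24.7 ± 1.29 in WT. Gart, Atic, Prps1 and Adsl came next, and each neighbouring pair in that order overlapped over the 4 libraries. Ppat (5.69 ± 0.703 in mTOR Tg, 7.18 ± 0.206 in WT) and Dhodh (6.57 ± 0.718 in mTOR Tg, 6.21 ± 0.126 in WT) overlapped as well. Cad (4.59 ± 0.372 in mTOR Tg, 5.29 ± 0.181 in WT) and Umps (5.08 ± 0.0582 in mTOR Tg, 4.19 ± 0.214 in WT) were lowest and exchanged places between the genotypes. The 3 pyrimidine genes were thus the lowest together with Ppat. The salvage gene Hprt, whose enzyme recycles hypoxanthine and guanine, stood at 37.1 and 34.7 CPM per kilobase in mTOR Tg and 37.6 and 37.6 in WT, below Paics and, apart from mTOR Tg replicate 1, above Impdh2.

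**Figure D2:**
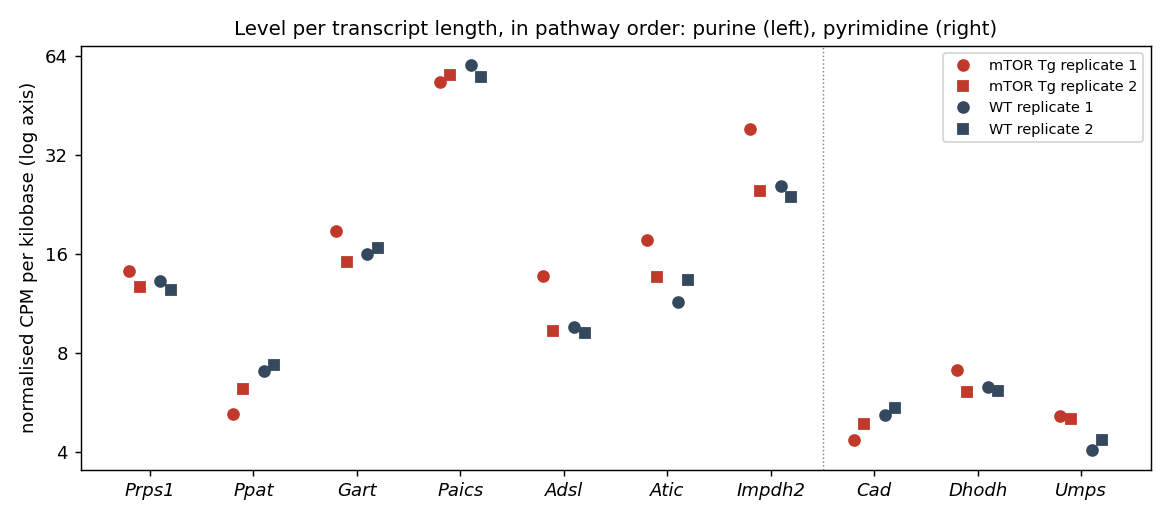
CPM per kilobase of transcript (log axis) of the 10 enzymes in pathway order, with purine genes left and pyrimidine genes right of the dotted line, for mTOR Tg and WT libraries. Paics lies highest at 53.3 to 59.9 and Umps and Cad lowest, between 4.03 and 5.42.

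The enzymes lay farther from WT in mTOR Tg replicate 1 than in replicate 2. Against the WT mean, the enzymes differed in log2 CPM by -0.47 (Ppat) to 0.63 (Impdh2) in replicate 1 and by -0.21 (Ppat) to 0.27 (Umps) in replicate 2. The WT libraries differed from each other by -0.12 (Paics) to 0.22 (Atic). In replicate 1 the higher values belonged to Impdh2, Adsl and Atic, and the lower to Ppat, Cad and Paics. Over the 10 enzymes, Spearman's rho between transcript length and the difference came to -0.39 for mTOR Tg replicate 1 and -0.49 for replicate 2. Over 13137 genes with an annotated length it came to -0.58 and 0.00 for the same libraries. For the difference between the WT libraries rho was 0.53 over the 10 enzymes and 0.27 over the 13137 genes. Among the enzymes a rho of this size therefore also arose within WT. These are descriptions across genes that share libraries. Adsl, at 3711 bases, differed by 0.55 in replicate 1, where the median of its length quartile was -0.13. Prps1, at 1965 bases, differed by 0.15, where the median of its quartile was 0.44. These lengths are of the longest annotated transcript, which need not be the one expressed, so the quartile of a gene is uncertain.

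**Figure D3:**
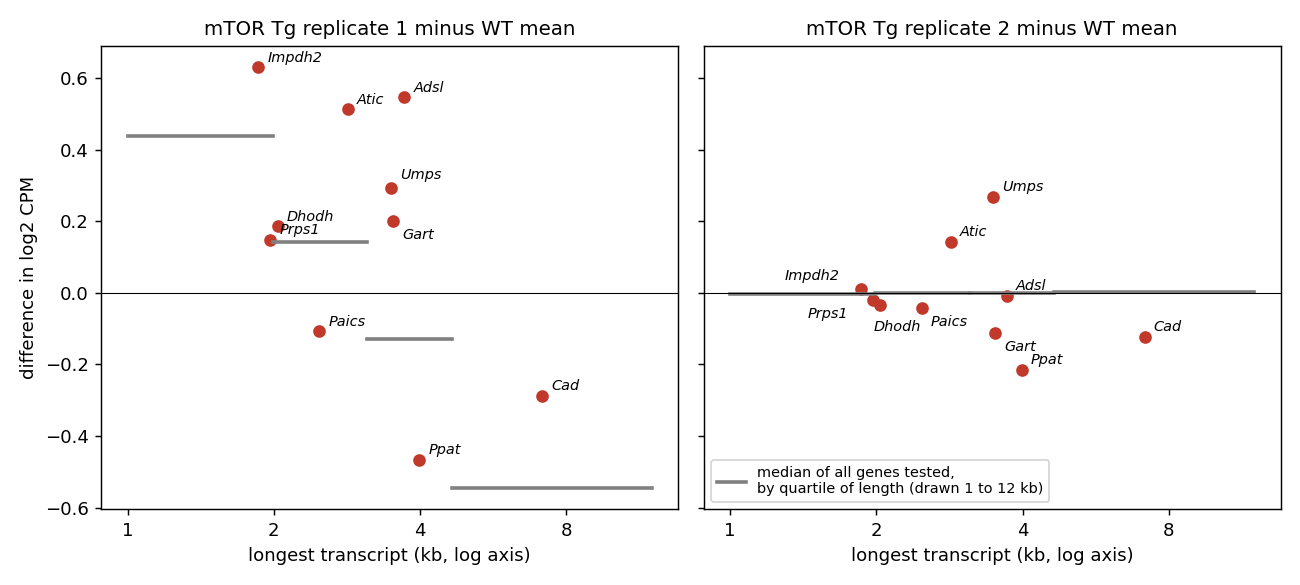
Difference of each mTOR Tg library from the WT mean in log2 CPM (vertical axis) against the longest annotated transcript in kilobases (log axis) for the 10 enzymes, with grey lines for the median of all genes tested in each quartile of length. In replicate 1 the medians fall with length, from 0.44 to -0.55, and the enzymes spread from -0.47 to 0.63, while in replicate 2 the enzymes lie between -0.21 and 0.27.

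Each enzyme was also fitted with 1 library left out. The lone library of a group is then assumed to vary like the pair in the other group. Without mTOR Tg replicate 2, edgeR called 4 of the 10 enzymes (Impdh2, Adsl and Atic higher, Ppat lower), where 45.5% of all genes tested were called (21.8% higher and 23.6% lower), so the share was near the background. With the length and GC correction added to that fit, chosen after the data were seen, 2 enzymes were called (Adsl at a log2 fold change of 0.66 and edgeR adjusted p = 0.00256, and Atic at 0.41 and 0.0381), beside 23.3% of all genes. Leaving out mTOR Tg replicate 1 gave 0 calls among the 10, beside 2.20% of all genes and 1.21% with the correction. The same count of 0 was found without WT replicate 1 (0.0802% of all genes), without WT replicate 2 (0.109%), with the replicate number as a block (0.278%) and with that block and the correction (0.00752%). With fewer libraries the groups overlapped less often over all genes too. They did not overlap in 6 enzymes without mTOR Tg replicate 1 (70.5% of all genes), in 10 without mTOR Tg replicate 2 (87.8%, or 84.2% with the correction), in 7 without WT replicate 1 (57.5%) and in 5 without WT replicate 2 (53.4%).

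**Figure D4:**
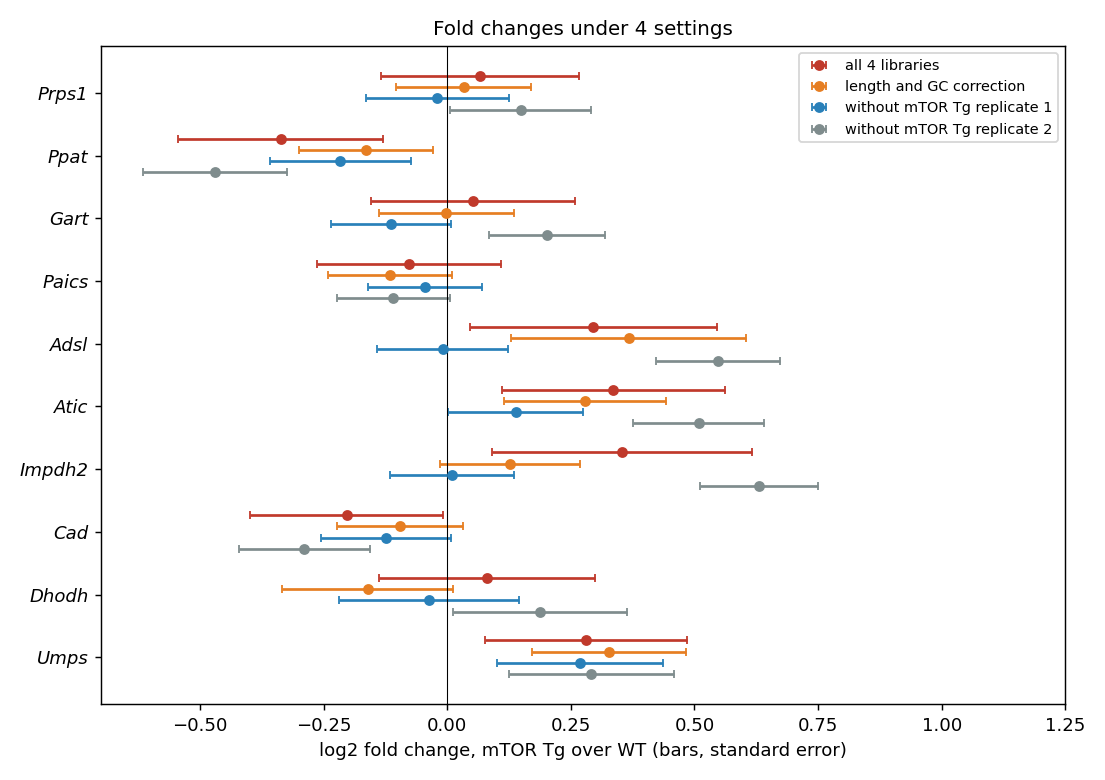
Log2 fold change of mTOR Tg over WT (horizontal axis, bars for the standard error) of the 10 enzymes with all 4 libraries, with length and GC correction, and without either mTOR Tg library. Umps stays between 0.27 and 0.33, whereas Adsl is at -0.0093 without replicate 1 and at 0.55 without replicate 2.

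The sequence around the start sites was read from the RefSeq promoter table (build GRCm38.p6), which matched 9 of the 10 enzymes, all but Dhodh. Over the 250 bases upstream of the start site, both strands were searched for 8 motifs, which may overlap one another. The E-box CACGTG, the element bound by MYC and related factors that are known to act on nucleotide synthesis genes, was found in 3 of 9 (Atic, Impdh2 and Paics) and in 6.02% of 32817 promoters. Those sites are shown in 30 bases each, read 5′ to 3′ on the gene's strand with the E-box in capitals. They are the E-boxes of the upstream windows only. Sequence after the RefSeq start sites was not searched, so the other enzymes may have E-boxes there. The log2 fold changes of these 3 genes were 0.34 (SE 0.23), 0.35 (SE 0.26) and -0.08 (SE 0.19), and none passed the test. Without mTOR Tg replicate 1 they were 0.14, 0.0091 and -0.045. Whether the 3 genes differ from one another was not tested. Distances are counted from the RefSeq start sites, which for Atic and Impdh2 lie inside the GENCODE genes whose positions are given above. By GENCODE the sites of Impdh2 and Paics therefore fall inside exons, that of Paics in the neighbouring Ppat, and 6 bases of the Atic stretch, with most of its E-box, are exonic.
Atic, chr1:71557126-71557155 (+), 7 bases before the RefSeq start: gaggaggggcgggacctcggggtCACGTGg
Impdh2, chr9:108560314-108560343 (+), 110 bases before the RefSeq start: gagctcgataagCACGTGgttacccagctc
Paics, chr5:76951087-76951116 (+), 203 bases before the RefSeq start: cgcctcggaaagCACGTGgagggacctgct

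The GC box GGGCGG, the SP1-type element of promoters without a TATA box, occurred in 9 of 9 upstream windows and in 32.7% of all promoters. Those promoters were not limited to genes expressed here or matched for GC content, so no trait of the pathway is read from that share. The element TGATGNAA, a core of ATF4 sites, occurred in 1 of 9 (Prps1) and in 3.45% of all. The letters TATAAA of the TATA box were in 1 of 9 (Umps) against 12.4%, the ETS core CCGGAAG in 2 (Ppat and Prps1) against 6.9%, and CCAAT in 4 against 33.8%. Letters were counted anywhere in the window. In Umps the TATAAA lies in the part far from the start site, so it is not read as a working TATA box. The cyclic AMP element TGACGTCA (1.55% of all promoters) and the palindromic NRF1 element (0.777%) were in 0 of 9. The windows of Atic and Umps are given whole, with GC boxes of either strand in capitals, since these are the genes in which both mTOR Tg libraries lay above WT. The Umps window also lies in an exon of the antisense gene Gm15829, which is not analysed here, and without the strand of the counts their reads cannot be told apart.
Atic, chr1:71556906-71557155 (+): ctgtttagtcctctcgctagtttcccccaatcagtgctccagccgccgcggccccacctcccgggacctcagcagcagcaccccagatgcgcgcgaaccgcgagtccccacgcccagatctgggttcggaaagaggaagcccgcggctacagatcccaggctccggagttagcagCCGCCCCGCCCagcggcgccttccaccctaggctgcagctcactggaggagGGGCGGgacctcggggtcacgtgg
Umps, chr16:33967039-33967288 (-): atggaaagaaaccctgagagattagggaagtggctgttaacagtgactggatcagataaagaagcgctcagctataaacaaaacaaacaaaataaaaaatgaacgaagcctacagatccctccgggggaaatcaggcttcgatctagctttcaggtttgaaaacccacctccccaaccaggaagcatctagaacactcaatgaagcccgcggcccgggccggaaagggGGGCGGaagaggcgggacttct

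The genes around these enzymes were described from 11 lists, 106 of whose genes were tested, and edgeR called 0 of them in either direction. Their median log2 fold change was 0.09, which became 0.0028 after the length and GC correction. As medians of the difference from the WT mean, the listed genes gave 0.14 for mTOR Tg replicate 1 and 0.03 for replicate 2. Each mTOR Tg library was higher than each WT library in 28 of them and lower in 9, beside the 17.6% and 17.0% of all genes. The 2 genes with the smallest p in each list are given as values. Among 11 other de novo enzymes (median -0.08, or 0.0039 corrected, with 4 positive) these were Prps1l3 and Prps2, described above. Pfas, whose enzyme acts between the Gart steps, was at 13.6 and 20.5 CPM in mTOR Tg and 19.6 and 18.2 CPM in WT. Gmps, the guanine nucleotide synthetase that follows Impdh2, was at 34.98 and 34.7 CPM in mTOR Tg and at 33.5 and 36.1 CPM in WT. The 9 genes of deoxynucleotide synthesis had a median of 0.14 with 7 positive, and 0.20 corrected. Among them the p53-induced reductase subunit gene Rrm2b was at 11.9 and 28.6 CPM in mTOR Tg and 31.1 and 29.6 CPM in WT, and the replication-linked subunit gene Rrm2 at 3.09 and 2.20 CPM in mTOR Tg and 2.53 and 1.47 CPM in WT. Summed markers of cycling cells were 156 and 176 CPM of the raw totals in mTOR Tg and 169 and 158 CPM of the raw totals in WT. These sums are without TMM scaling, unlike the values of Rrm2. Pcna was their largest part, at 61.1 and 58.8 CPM of the raw totals in mTOR Tg and 62.2 and 60.2 in WT. Single markers went different ways, with Cdk1, Birc5 and Ube2c among those higher in both mTOR Tg libraries and Mcm3 lower in both. The share of cycling cells is therefore not read from the sums.

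The 12 nucleotide kinases had a median of 0.23 with 10 positive, which became -0.04 after the length and GC correction. Their median difference from the WT mean came to 0.37 for mTOR Tg replicate 1 and 0.03 for replicate 2. Nme6 was at 8.34 and 6.70 CPM in mTOR Tg and 5.98 and 4.90 CPM in WT, and the guanylate kinase gene Guk1 at 38.6 and 29.4 CPM in mTOR Tg and 29.1 and 26.9 CPM in WT. Purine salvage genes had a median of -0.07 over 5 (-0.05 corrected), with the deoxycytidine kinase gene Dck at 1.52 and 3.83 CPM in mTOR Tg and 5.65 and 4.04 CPM in WT, and the adenine salvage gene Aprt at 30.3 and 19.7 CPM in mTOR Tg and 19.5 and 19.1 CPM in WT. Pyrimidine salvage genes had a median of 0.09 over 7 (-0.14 corrected; 0.21 and -0.05 in mTOR Tg replicates 1 and 2 against the WT mean), with the thymidine phosphorylase gene Tymp at 71.3 and 29.3 CPM in mTOR Tg and 32.7 and 35.9 CPM in WT, and Uprt at 0.392 and 5.08 CPM in mTOR Tg and 4.56 and 4.90 CPM in WT. In Aprt, Tymp and Uprt it was mTOR Tg replicate 1 that stood apart.

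The 15 breakdown genes had a median of 0.29 with 9 positive, and 0.05 after the length and GC correction. The AMP deaminase gene Ampd1 was at 1.91 and 1.01 CPM in mTOR Tg and 0.988 and 0.303 CPM in WT, and the nucleotidase gene Nt5c at 37.5 and 20.5 CPM in mTOR Tg and 20.7 and 20.2 CPM in WT. The 4 nucleoside transporters had a median of 0.20 (0.19 corrected), with the equilibrative transporter gene Slc29a1 at 4.61 and 3.73 CPM in mTOR Tg and 3.46 and 2.88 CPM in WT, and Slc29a2 at 1.18 and 0.910 CPM in mTOR Tg and 0.659 and 0.859 CPM in WT. The 7 pentose phosphate genes, which supply the ribose of PRPP, had a median of 0.11 with 5 positive, which became -0.03 after the correction, and were at medians of 0.22 and 0.12 in mTOR Tg replicates 1 and 2 against the WT mean. The transaldolase gene Taldo1 was at 207 and 164 CPM in mTOR Tg and 145 and 133 CPM in WT, and the dehydrogenase gene Pgd at 343 and 319 CPM in mTOR Tg and 275 and 245 CPM in WT.

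**Figure D5:**
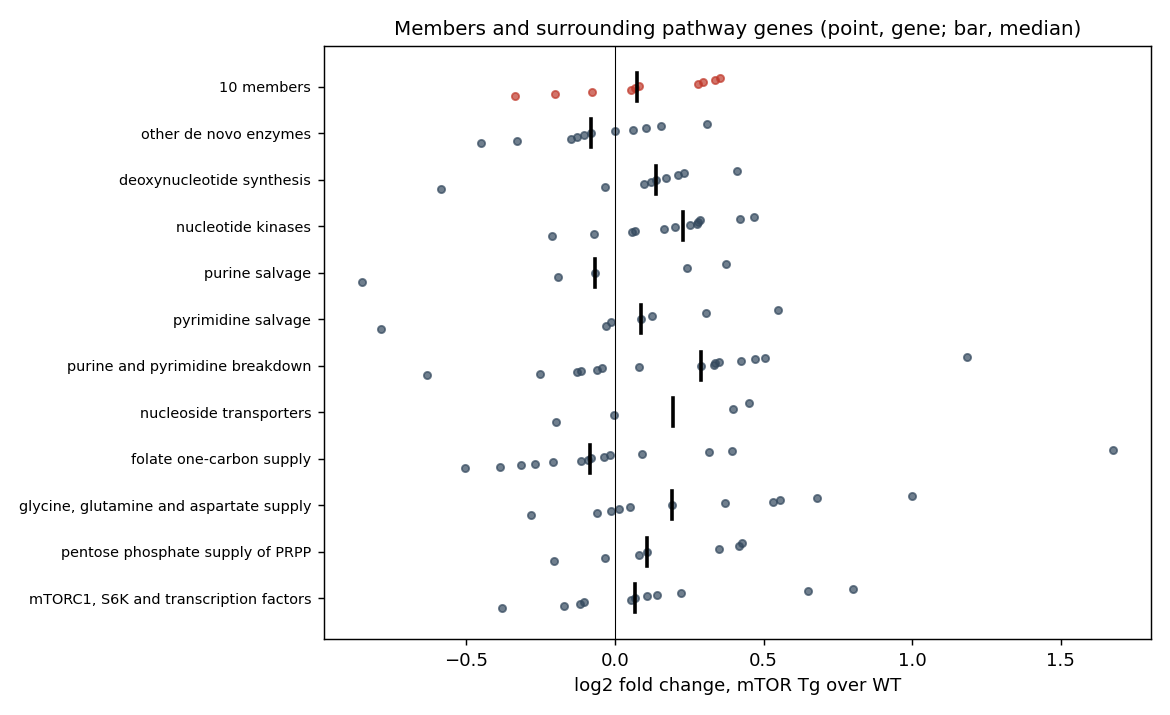
Log2 fold change of mTOR Tg over WT (horizontal axis) of each tested gene in the 10-enzyme set and the 11 surrounding lists, with a bar at each median. The enzymes lie between -0.34 and 0.35 around a median of 0.07, and Mthfd2 of the folate list lies farthest right at 1.68.

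Of the 106 listed genes, 5 had an unadjusted edgeR p under 0.05, all 5 with higher values in mTOR Tg (Mthfd2, Asns, Phgdh, Myc and Eif4ebp1). Over all genes tested 2.46% had such a p, 205 with higher and 122 with lower values. The 14 genes of folate-bound carbon supply had a median of -0.09 with 4 positive, and -0.07 corrected. Mthfd2, a mitochondrial enzyme that yields formyl groups for the Gart and Atic steps, was at 4.07 and 5.70 CPM in mTOR Tg and 1.48 and 1.57 CPM in WT, which is 1.68 as log2 fold change (SE 0.33; edgeR, adjusted p = 0.860). Its relative Mthfd2l was at 5.69 and 4.405 CPM in mTOR Tg and 6.75 and 7.58 CPM in WT. The 11 genes of glycine, glutamine and aspartate supply had a median of 0.19 with 8 positive, and 0.26 corrected, while their medians against the WT mean were 0.34 in mTOR Tg replicate 1 and 0.02 in replicate 2. Asns, the asparagine synthetase gene, was at 26.2 and 20.5 CPM in mTOR Tg and 13.5 and 15.8 CPM in WT, and Phgdh, the entry enzyme of serine and glycine synthesis, at 4.81 and 8.43 CPM in mTOR Tg and 3.18 and 3.44 CPM in WT. These genes were picked for the smallest p in their lists, so nothing is read from their separation by genotype.

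Of 11 genes of mTOR complex 1, S6 kinase and transcription factors, Mtor included, the median was 0.07, or -0.0094 corrected. Against the WT mean it came to 0.23 for mTOR Tg replicate 1 and -0.08 for replicate 2. Myc was at 5.94 and 5.55 CPM in mTOR Tg and 3.40 and 3.18 CPM in WT, a log2 fold change of 0.80 (SE 0.26), and the translation repressor gene Eif4ebp1 at 20.9 and 17.1 CPM in mTOR Tg and 12.02 and 12.3 CPM in WT, one of 0.65 (SE 0.22). Atf4 itself was at 168 and 81.2 CPM in mTOR Tg and 116 and 115 CPM in WT, the mTOR Tg libraries lying on either side of WT. Without mTOR Tg replicate 1, edgeR called 3 of the listed genes, Mthfd2 (log2 fold change 1.90) and Phgdh (1.34) higher and Atf4 (-0.51) lower, beside 2.20% of all genes. Dropping mTOR Tg replicate 2 gave 48 calls among the listed genes, a share near the 45.5% over all genes.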

How the data were processed

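RNA was measured in 4 libraries of alveolar type II cells, 2 mTOR Tg and 2 WT. The authors deposited 1 table of whole-number read counts per gene symbol. Per the submitters' processing notes HISAT2, edgeR and the mouse build mm10 were used, while the counting program, annotation, strandedness and versions were not given in the sources used here. Columns were tied to samples by the sample names in the labels.

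From these counts, fits were made in R 4.3.3 with edgeR 4.0.16. The function filterByExpr (minimum count 10) left 13306 genes with 99.9% of all counts. Libraries were scaled by TMM, and the quasi-likelihood test fitted genotype alone, with Benjamini-Hochberg adjustment over all genes tested and a threshold of 0.05. The SE is the log2 fold change over the square root of F. Log2 CPM used a prior count of 2. In libraries of this size 3 counts equal 0.137 to 0.165 CPM, a floor that covers counting error only. Alternatives were other scalings, filters, limma-voom (limma 3.58.1), DESeq2 1.42.0, each library left out, a replicate block and a correction for transcript length and GC content (natural splines with 5 degrees of freedom). Lengths, GC content and positions come from the longest basic transcript in GENCODE M21 (GRCm38, called mm10), found for 98.7% of tested genes. Which transcripts the cells expressed was not tested, and values per kilobase and the correction rest on this choice. Promoter sequences are RefSeq's. The code was tested on simulated data. The enzymes and lists were chosen with earlier results of these data known. The 10 enzymes were all to be named, and of each list the genes passing the threshold or, with none, the 2 with the smallest p, besides paralogs and genes starting within 1000 bases on the other strand. Mtor was added as the gene the labels name, and Pfas, Gmps, Hprt, Ndufaf3 and Atf4 were chosen after their values were seen. The surrounding lists were other de novo enzymes, deoxynucleotide synthesis, nucleotide kinases, purine salvage, pyrimidine salvage, breakdown, nucleoside transporters, folate-bound carbon supply, amino acid supply, pentose phosphate genes and mTOR complex 1 with its factors.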

Additional observations from a re-analysis of the deposited data

How the results depend on the processing

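Of the 10 enzymes, 0 were called under the alternatives that kept all 4 libraries, and 0 to 4 with 1 library left out. Over all genes tested edgeR called 0. DESeq2's test called 12, the replicate block 37, and the block with the length and GC correction 1. Leaving out 1 library gave 11 to 6200 calls (299 without mTOR Tg replicate 1, 6200 once replicate 2 was dropped). With the correction added, dropping mTOR Tg replicate 1 gave 165 calls over all genes, 0 enzymes and 3 listed genes, and dropping replicate 2 gave 3175, 2 and 23. Listed genes called ranged from 0 to 48 with 1 library left out. Enzymes whose groups did not overlap numbered 4 with all libraries and no length and GC correction. With all libraries and the correction they numbered 5, with or without the replicate block. The share over all genes for these corrected values is not given here, so nothing is read from that count. The correction added Dhodh, lower in both mTOR Tg libraries. They numbered 5 to 10 with 1 library left out (53.4% to 87.8% of all genes), and 10 (84.2%) with the correction and mTOR Tg replicate 2 dropped.

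The median log2 fold change of the enzymes ranged from -0.028 to 0.19 with 1 library left out. Over the same fits the change ranged from -0.020 to 0.15 for Prps1, -0.11 to 0.20 for Gart, -0.0093 to 0.55 for Adsl and -0.036 to 0.19 for Dhodh. Dropping mTOR Tg replicate 1 with the correction turned the sign for Prps1 (-0.0073), Gart (-0.12), Adsl (-0.0088), Impdh2 (-0.0050) and Dhodh (-0.051). Gart was also at -0.018 on library size only, at -0.0019 with the correction and at -0.0059 with correction and replicate block. Dhodh was at -0.16 with the correction, at -0.16 with correction and replicate block, and at -0.27 with the correction and mTOR Tg replicate 2 dropped. The cause was not tested. Fits that combine a dropped library with the correction were chosen after seeing the data.

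The labels tie the replicate numbers to no litter, batch or day, and same-numbered samples deviated from their group means with a correlation of 0.07 across genes, so the block is an alternative only. No scaling moved the median of all genes by over 0.1 on the log2 scale.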
